A study of Mus musculus with 298 samples.

Results

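The cytosolic ribosomal protein genes encode the protein part of the ribosomes that translate nuclear genes. Members were the gene symbols that start with Rpl (large subunit) or Rps (small subunit), go on with a number and at most 1 letter, plus Rplp0, Rplp1, Rplp2 and Rpsa; pseudogene symbols and the Rps6k kinases were left out. The rule took 81 of the 22800 symbols in the count table, 49 of the large and 32 of the small subunit, and each of them had at least 1 read. RNA came from single neurons of the suprachiasmatic nucleus (SCN), the hypothalamic clock of the mouse, whose firing was recorded in a slice before the cytoplasm was drawn into the patch pipette. Slices were cut near lights on (day cells) or near lights off (night cells) from mice kept in equal hours of light and dark, and 1 slice could give several cells. The sources used here give no strain, genotype or age. Every cell was labelled an interneuron of the SCN, by time of day, by firing (active, silent or depolarized) and as cFOS+ or cFOS-. No source used here says what the cFOS label rests on.

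Day cells labelled cFOS+ were 51 active, 17 silent and 2 depolarized, and those labelled cFOS- were 27 active, 32 silent and 7 depolarized. Night cells labelled cFOS+ were 41 active, 34 silent and 3 depolarized, and those labelled cFOS- were 46 active, 34 silent and 2 depolarized. A further pair of night silent cells, S70 and S71, carried opposite cFOS labels and nearly identical profiles (correlation 0.9995 across genes); their mean entered as a single cell of no cFOS group, leaving 297 distinct cells. Since the animal and slice behind a cell are not in its labels, cells are not replicates, each group is 1 sample, and no p-value is given. Total reads ran from 3187057 to 25535298 over the deposited cells (the pair counted separately) with a median of 6320667, and 2341 to 8420 genes were detected. The 12 neuronal markers summed to 5642 CPM (reads per 1000000 reads of the cell or group) over all cells, and 113 cells also held at least 100 CPM of 11 summed microglia markers. Pooled Fos was 2005 CPM in cells labelled cFOS+ and 2676 CPM in cells labelled cFOS-, so the label is used below only as a label. Intervals cover the counting error of reads only, not differences between animals or slices.

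A ribosome holds 1 copy of most of these proteins, and cells make them in matched amounts. Their mRNAs begin with a short run of pyrimidines, the TOP motif, through which mTOR and the RNA-binding protein Larp1 set their translation. Most of these genes have many processed copies in the genome, reverse-transcribed from the mRNA and in large part without function, so that reads from the gene can match several places. In neurons, local synthesis of proteins in dendrites and axons also depends on ribosomes.

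Several genes are shown here by sequence because the largest differences among the members went with sequence shared with other genes. Rps27, a zinc-finger protein of the small subunit (chr3:90212522-90213651, minus strand, GRCm38), has a copy annotated as coding, Rps27rt (chr9:114982366-114982739, minus strand). Their coding sequences are the same at every base.
Rps27: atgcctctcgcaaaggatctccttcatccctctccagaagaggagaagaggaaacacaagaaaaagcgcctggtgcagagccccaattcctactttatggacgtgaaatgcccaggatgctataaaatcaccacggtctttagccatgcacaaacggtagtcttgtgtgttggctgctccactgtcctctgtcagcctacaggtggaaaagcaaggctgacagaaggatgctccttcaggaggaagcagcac
Rps27rt: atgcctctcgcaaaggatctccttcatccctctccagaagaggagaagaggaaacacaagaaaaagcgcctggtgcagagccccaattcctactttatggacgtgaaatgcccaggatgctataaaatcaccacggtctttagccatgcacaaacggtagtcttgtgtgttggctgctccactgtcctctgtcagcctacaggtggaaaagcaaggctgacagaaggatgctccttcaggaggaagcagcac

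Rpl9, a large-subunit protein (chr5:65388364-65391444, minus strand), has the copy Rpl9-ps6 (chr19:32465865-32466578, minus strand), which the annotation also lists as coding. Of 576 coding bases they differ at 1, G266A, counted from the start codon. That base is shown in capitals, with 30 bases on each side.
Rpl9: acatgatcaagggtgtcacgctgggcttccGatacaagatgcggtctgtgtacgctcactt
Rpl9-ps6: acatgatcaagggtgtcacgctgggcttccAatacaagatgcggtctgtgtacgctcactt

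The start sites of 4 members are shown as 15 bases before and 15 from the start given by RefSeq (GRCm38.p6), with the longest run of pyrimidines in capitals. Rps6 is the small-subunit protein phosphorylated by S6 kinase, Rpl4 lines the tunnel through which the new peptide leaves, and Rplp0 is the base of the stalk that calls in elongation factors. The windows are chr3:90213634-90213663 (minus), chr4:86857353-86857382 (minus), chr9:64173372-64173401 (plus) and chr5:115559452-115559481 (plus), in the order printed.
Rps27: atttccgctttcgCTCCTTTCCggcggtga
Rps6: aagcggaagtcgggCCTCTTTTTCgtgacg
Rpl4: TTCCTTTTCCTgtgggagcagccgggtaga
Rplp0: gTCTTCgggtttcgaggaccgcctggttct

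In this window a C followed by at least 4 pyrimidines stood in 63.3% of the 60 members with an entry in the RefSeq table, against 36.4% of all 27025 genes in it. Over the whole stretch from 250 bases before to 50 after the start, on either strand, the ETS core CCGGAAG was in 40.0% of members against 9.1% of all genes, and the SP1 core GGGCGG in 58.3% against 35.9%. The YY1 core AAGATGGC was in 6.7% against 2.9%, the E-box CACGTG, a site of the clock factors, in 8.3% against 7.2%, and the TATA box TATAAA in 8.3% against 14.2%. A match describes the letters in the window and no more.

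Ribosomal protein reads were 0.765% of all reads pooled, and 0.186 to 3.11% per cell with a median of 0.687%. The levels split by the number in the cell's title. Cells S15 to S432, called the lower numbers here, had a pooled share of 0.925% (9254.5 CPM), and cells S435 to S5162, the higher numbers, had 0.473% (4725.6 CPM), a log2 ratio of 0.97. In the lower numbers the share ran from 0.335 to 3.11% with a median of 0.809%, and among the 100 cells of the higher numbers from 0.186 to 2.17% with a median of 0.424%. The ranges overlapped, but the interquartile ranges did not, at 0.654 to 1.01% and 0.358 to 0.573%. No source used here says what the numbers stand for. The split was found after values had been seen. Its place is where the mean share of Rps27rt in the reads of Rps27 and Rps27rt rises most. For the non-members Gapdh and Ppia, the largest absolute difference in mean log2 (CPM + 1) fell at the same number. Both differ strongly across the split, at log2 ratios of 5.20 and 5.47, so this is no independent check of its place. The values of Rps27, Rps27rt, Gapdh and Ppia are therefore descriptions of the split.

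**Figure D1:**
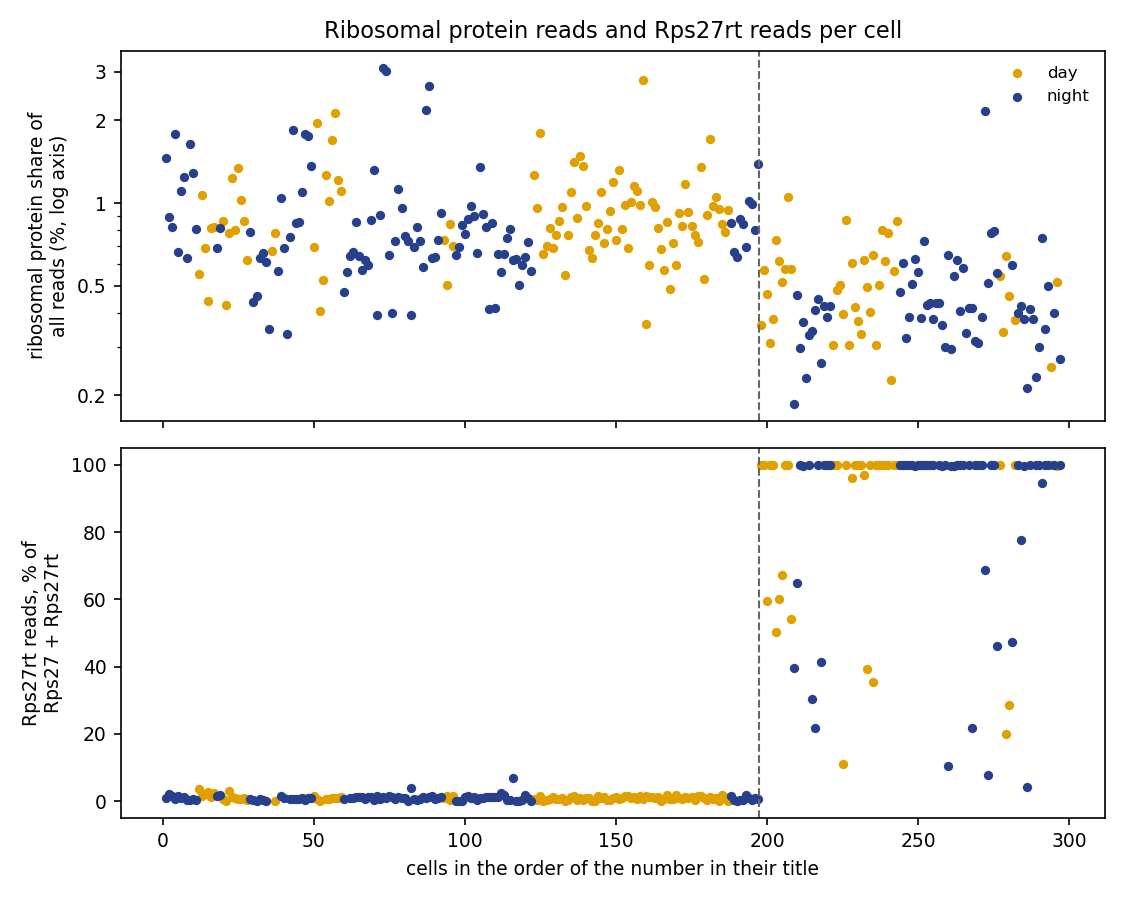
Upper panel: ribosomal protein share of all reads (%, log axis) of each of the 297 cells, placed in the order of the number in its title and coloured by time of day. Lower panel: Rps27rt reads as a percent of Rps27 and Rps27rt reads, for cells with a read of either. The dashed line stands between S432 and S435; the Rps27rt share has a median of 0.848% to its left and 100% to its right, and the ribosomal protein share a median of 0.809% and 0.424%.

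Rps27 had 0 to 578 CPM with a median of 83.4 CPM in the lower numbers, and 0 to 310.8 CPM with a median of 0 in the higher numbers. Its copy Rps27rt had 0 to 5.99 CPM with a median of 0.734 CPM in the lower numbers, and 0 to 679 CPM with a median of 37.4 CPM in the higher numbers. One symbol thus took most of the reads in each range: Rps27rt held more than 50% of the reads of both in 0 cells of the lower and in 77 of 92 cells of the higher numbers with a read of either. Rpl9 was at 203.8 CPM pooled (95% interval 203.0 to 204.5) in the lower and 52.8 CPM (52.3 to 53.4) in the higher numbers, while Rpl9-ps6 was at 1.38 and 77.7 CPM. The 18 Rpl and Rps pseudogene symbols summed to 3.79 CPM in the lower and 118.8 CPM in the higher numbers. All 1895 pseudogene and Gm symbols of the table, whatever their parent gene, summed to 10949 CPM in the lower and 13360 CPM in the higher numbers, and of the 113 measured 13 were past 1.5-fold higher and 41 past it lower in the lower numbers. How far reads of the members are counted under such symbols was not tested.

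Of the 78 members with at least 20 CPM in one range, 72 were higher in the lower numbers, 59 were past 1.5-fold higher and 0 past 1.5-fold lower, with a median log2 ratio of 1.37. Of all 8702 genes so measured, 47.5% were higher, 14.1% were past 1.5-fold higher and 15.3% past 1.5-fold lower, with a median of -0.03. Both subunits took part, with 36 of 46 measured members of the large and 23 of 32 of the small subunit past 1.5-fold. All 4 stalk proteins were past it, and 6 of 9 proteins of the exit tunnel and its rim. So were 2 of 3 around the peptidyl transferase centre, 1 of the 2 that bind the 5S RNA, 2 of 4 at the mRNA entry and decoding site, 4 of 6 at the mRNA exit and E site, and both proteins of the beak, Rps10 and Rps12. Rps6 was at 98.1 against 20.3 CPM, and Rps27a, made as a fusion with ubiquitin, at 111.6 against 15.4 CPM.

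Rpl23a, at the rim of the exit tunnel, had the highest ratio, with medians of 40.2 CPM in the lower and 0 in the higher numbers and pooled levels of 58.5 and 3.82 CPM (log2 3.63). Rps23, at the decoding centre, followed at 107.9 against 8.69 CPM (3.49), then the zinc-finger protein gene Rps29 at 53.6 against 4.26 CPM (3.37), Rpl13 at 223.9 against 22.5 CPM (3.26) and Rpl24 at 97.1 against 11.01 CPM (3.03). Near the other end, Rpl15 was at 104.1 against 120.5 CPM (-0.21) and Rps3, at the mRNA entry, at 276.5 against 314.3 CPM (-0.18). Rpl4 had medians of 446.3 and 411.95 CPM and pooled levels of 533.1 and 542.2 CPM (-0.02). These genes are named from the 2 ends of the ratio, after the values were seen.

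The members differed with how much of their coding sequence is found elsewhere. Each coding sequence was read in windows of 50 bases, and the windows found word for word in another gene of GENCODE M21 were counted. The 29 members with every window in another gene had a median log2 ratio of 2.01, and 25 of them were past 1.5-fold; they summed to 2743.6 CPM in the lower and 857.1 CPM in the higher numbers. The 37 members with 50 to under 100% of windows shared had a median of 1.23, and 33 were past 1.5-fold. Of the 14 with under 50% shared, 11 were measured, with a median of 0.06, and 1 was past 1.5-fold, Rps21 at 45.7 against 22.9 CPM; the 14 summed to 1967.7 and 1874.0 CPM. Over the 77 members with both values Pearson's r was 0.60 and Spearman's rho 0.59, and with windows over the whole transcript 0.48 and 0.48. Members share libraries and these are not independent points. Of the 29 with all windows shared, 4 were not past 1.5-fold: Rpl15 (-0.21), Rpl27a at 60.3 against 52.1 CPM (0.21), Rpl41, the smallest ribosomal protein, at 202.4 against 148.2 CPM (0.45), and the 5S-binding Rpl5 at 87.5 against 60.1 CPM (0.53).

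**Figure D2:**
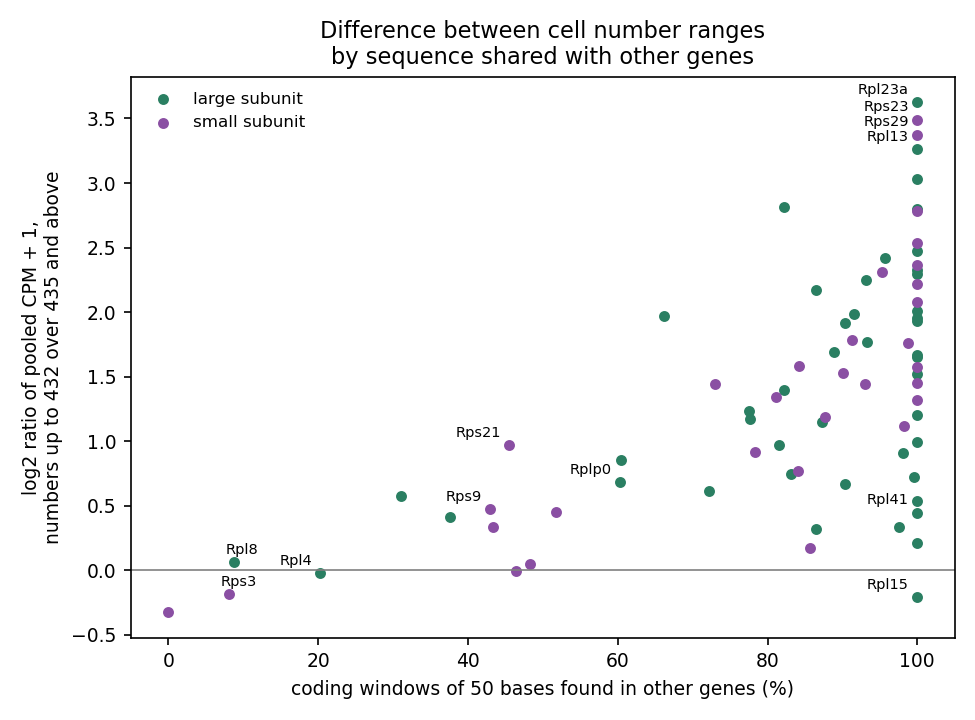
Each point is a measured member with a coding sequence; the horizontal axis is the percent of its 50-base coding windows found in other genes, and the vertical axis the log2 ratio of pooled CPM + 1 in the lower over the higher cell numbers. Members under 50% of shared windows lie near 0 (median 0.06), and those at 100% lie between -0.21 and 3.63 with a median of 2.01.

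Other measures of the cells differed less between the ranges. Median total reads were 6150204 in the lower and 6782370.5 in the higher numbers, median detected genes 4665 and 4010, and the median mitochondrially encoded share 0.3998 and 0.555%. The median number of members with a read was 69 (23 to 78) against 55 (20 to 75). Microglia markers reached 100 CPM in 80 cells (40.6%) of the lower and 33 of the 100 cells of the higher numbers, with pooled sums of 1002 and 974 CPM. Without these cells and the 14 depolarized cells, all of which had lower numbers, 59 members were again past 1.5-fold higher and 0 lower, with a median of 1.23. Of all genes, 1549 were then past 1.5-fold higher and 1584 past it lower, against 1226 and 1330 with every cell kept. The lower numbers held 96 day and 101 night cells and the higher numbers 40 and 60, and the median share was higher in the lower numbers in each of the 8 active and silent label groups. The part of the remaining differences in the split was not tested.

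Lists of related genes had smaller shares past 1.5-fold. Of 35 measured translation factors, 7 were past 1.5-fold higher in the lower numbers and 0 lower, with a median of 0.13. Of 24 measured ribosome biogenesis genes 5 were higher and 1 lower, of 12 mTOR control genes 2 and 2, and of 75 mitochondrial ribosomal protein genes 10 and 6. The medians of these 3 lists lay between -0.02 and 0.03. Outside the members, Ppia (cyclophilin A) was at 698.8 CPM in the lower and 14.8 CPM in the higher numbers, and the glycolytic enzyme gene Gapdh at 1565.6 and 41.5 CPM.

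Within all cells, the highest levels per kilobase of transcript included those of Rpl4 (348.7 CPM per kb), Rpl41 (348.1), Rps3 (304.5), Rps14 (294.8), Rps9 (293.6), Rps27 (219.4) and Rps25 (214.0). The lowest 5 with a read in at least 10% of cells were Rps15a (11.1 CPM per kb), Rpl22 (12.5), Rps20 (19.0), Rps16 (25.1) and Rpl28 (36.3). The length matters to this order: Rps15a and Rps20 have long annotated transcripts of 5130 and 3706 bases, and per kilobase of coding sequence they stood at 146.2 and 197.1. Rpl41, with 75 coding bases, stood at 2444 per kb of coding sequence. The highest CPM without regard to length were those of Rpl4 (536.3), Rps3 (289.9), Rplp0 (265.6), Rps9 (263.1) and Rpl3 (258.3), which together held 21.1% of the member reads. Rpl3 lies at the peptidyl transferase centre. Rps9, Rps3 and Rpl4 were among the members with under 50% of shared windows, and Rps27 was not.

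Single cells held reads of 20 to 78 members, with a median of 65. A read was found in at least 50% of cells for 75 members, in at least 90% for 16, and in under 10% for 3. The 3 were tissue-restricted paralogs: Rpl3l, known from muscle, had a read in 2 cells (0.673%, exact binomial interval 0.082 to 2.41%), Rpl10l, known from testis, in 2 cells, and Rpl39l in 1 cell, S263, at 134.3 CPM. Rps4l, which the annotation lists as a transcribed processed pseudogene, had a read in 44.4% of cells and 73.1 CPM pooled. Rps27l had a read in 50.8% of cells and 37.9 CPM.

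Among paralogs outside the rule, Rpl22l1 had the higher level over its partner Rpl22. Rpl22l1 was at 0 to 2051 CPM with a median of 133.0 CPM, and Rpl22 at 0 to 757 CPM with a median of 0. A read of Rpl22l1 was found in 90.6% and of Rpl22 in 38.7% of cells, and the levels were 368.6 against 12.5 CPM per kb of transcript, and their levels over cells had a Spearman rho of 0.05. Rpl22 shared under 50% of its coding windows, and its pooled level was 29.1 CPM in the lower and 19.2 CPM in the higher cell numbers. Rpl22l1 was at 229.7 and 141.5 CPM, and its shared windows were not counted. Rpl36al was likewise higher than Rpl36a in 190 cells, at 72.4 against 44.1 CPM per kb, but all coding windows of Rpl36a are found in other genes, and it was at 30.1 CPM in the lower and 5.20 CPM in the higher numbers.

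Day cells held slightly more ribosomal protein reads than night cells. Over 127 day and 156 night cells, active and silent, the members summed to 7878.5 CPM by day and 7060.7 CPM by night, a log2 ratio of 0.16. Of the 78 measured members 54 were higher by day (background 47.3% of 8637 genes), 0 were past 1.5-fold higher (background 10.6%) and 1 was past it lower (13.3%). In all 4 strata of firing and cFOS label 6 were higher (6.3%) and 0 lower (8.37%). Night cells were spread over the cell numbers differently: 60 of 156 night and 40 of 127 day cells carried the higher numbers. In the lower numbers the median share was 0.839% by day (0.364 to 2.12%) and 0.742% by night (0.335 to 3.11%), the summed levels differed by 0.07 (log2), and 44 of 78 members were higher (background 48.1%), with 2 past 1.5-fold higher (13.5%) and 2 lower (16.3%). By stratum, the pooled ratio there was below 0 in active cFOS+ cells (-0.02) and in silent cFOS- cells (-0.30). It was above 0 in active cFOS- cells (0.43) and in silent cFOS+ cells (0.34). In the higher numbers the medians were 0.504% (0.228 to 1.05%) and 0.411% (0.186 to 2.17%), the ratio was 0.21, and 44 of 61 members were higher (background 49.1%), with 11 past 1.5-fold higher (23.4%) and 5 lower (25%). The day and night cells overlapped over most of their range in both. All 11 microglia markers were higher by day, at a summed 1409 CPM (0 to 34382 in single cells) against 492.05 CPM (0 to 31204); without cells with these markers the ratio within the 2 number ranges was 0.08 and 0.22. Astrocyte markers were also higher by day, at 776.6 against 366.8 CPM (10 of 12 higher), as were oligodendrocyte markers, at 517.3 against 294.6 CPM (7 of 9 higher). The part of these 2 marker lists in the ratio was not tested.

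The members that kept their sign by day in the pooled cells, in all 4 strata, in the mean over cells and without the top cells, taken by size, were Rps12, Rpl15, Rps2, Rpl32 and Rpl10. Rps12, a beak protein, was at 0 to 408.9 CPM by day with a median of 9.35 CPM, and at 0 to 320 CPM by night with a median of 0. Its pooled level was 28.9 against 19.6 CPM (0.54), with ratios of 0.51 in the lower and 0.34 in the higher numbers, where it was under 20 CPM in both groups. The core protein gene Rpl15 was at 130.2 against 91.3 CPM (0.51, with 0.37 and 0.75 within the ranges). Rpl32 (0.36, with 0.32 and 0.38) and Rps2, at the mRNA entry (0.42, with 0.17 and 0.96), also had the same sign in both ranges, but Rpl32 was at -0.03 in cells with at least the median number of detected genes. Rpl10, which joins the large subunit last, near the peptidyl transferase centre, did not: its ratio was 0.29 pooled, -0.08 in the lower and 2.28 in the higher numbers, where its median was 0 by day and by night. Rps26, at the mRNA exit and named here after its value was seen, was the member past 1.5-fold lower by day, at 25.8 against 39.9 CPM (-0.61), with medians of 18.9 and 15.8 CPM in the other direction.

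**Figure D3:**
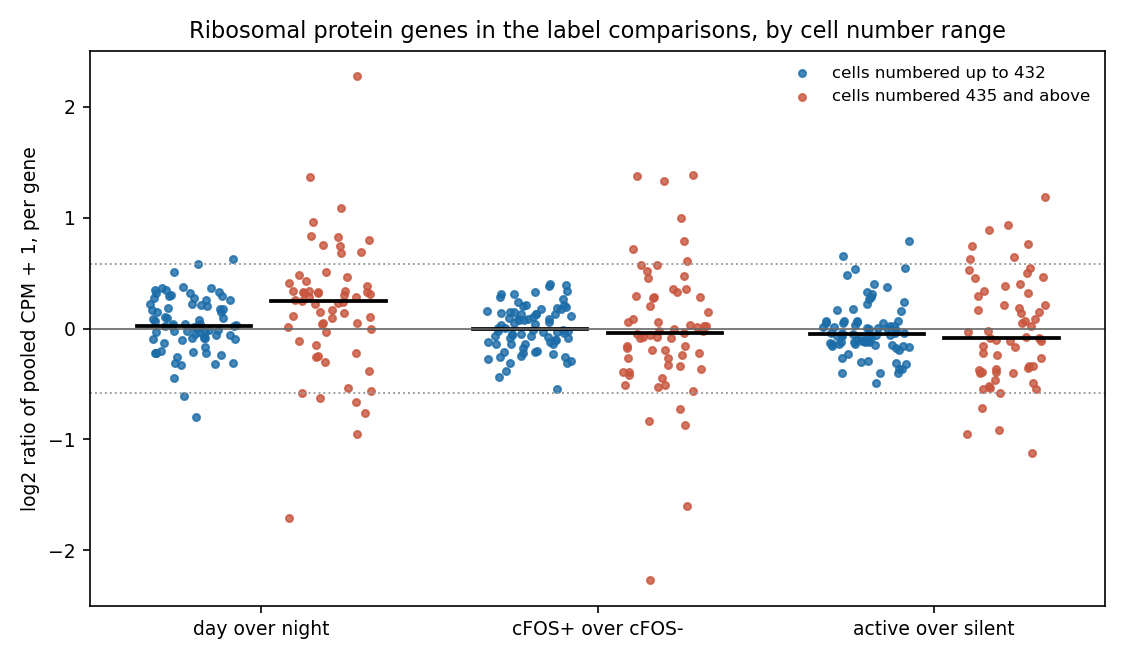
Each point is a measured member, placed at its log2 ratio of pooled CPM + 1 in the 3 label comparisons, for the lower (blue) and higher (red) cell numbers; bars are medians and dotted lines mark 1.5-fold. In the lower numbers the points cluster near 0, with 4, 0 and 2 members past the lines, and in the higher numbers, with fewer cells, 16, 12 and 11 are past them.

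Cells labelled cFOS+ and cFOS- had nearly the same summed level with all strata pooled. Over 143 cFOS+ and 139 cFOS- cells the members summed to 7380.7 and 7479.8 CPM (log2 -0.02), 38 of 78 were higher in cFOS+ (background 46.8%), 1 was past 1.5-fold higher (9.06%) and 0 lower (13%). In all 4 strata 0 were higher (6.18%) and 2 lower (7.85%). By stratum the pooled ratio was 0.09 in day active, 0.16 in day silent and 0.20 in night active cells. It was -0.66 in night silent cells, so strata of opposite sign entered the pooled value. Within the number ranges the log2 ratio was -0.02 and 0.00, with median shares of 0.812 against 0.805% and 0.428 against 0.422%. In the lower numbers 39 of 78 members were higher (background 47.6%), with 0 past 1.5-fold in either direction (13.1% higher, 15.7% lower). In the higher numbers 28 of 63 were higher (48.1%), with 7 past 1.5-fold higher (19.4%) and 5 lower (25.5%). Of the members named by the rule, Rpl9 was at 117.6 against 169.8 CPM (-0.53) with ratios of -0.29 and -2.27 within the ranges, and medians of 148.1 and 150.96 CPM in the lower numbers. Over all cells of the higher numbers Rpl9 had a median of 0.243 CPM, and its copy Rpl9-ps6, with 1 differing coding base, a median of 60.5 CPM. How far reads of 1 symbol were counted under the other was not tested. Rpl29 was at 34.9 against 40.0 CPM (-0.19, with -0.20 and -0.16), but its medians ran the other way, at 23.6 and 19.6 CPM (0.25). Rpl30, named after its value was seen, was the member past 1.5-fold, at 102.8 against 66.9 CPM (0.61, with 0.38 and 1.33). Microglia markers summed to 737 CPM in cFOS+ and 1080 CPM in cFOS- cells, with 1 of 11 higher in cFOS+.

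Active and silent cells also lay close together in the summed level with all strata pooled. Over 165 active and 118 silent cells it was 7467.9 against 7370.8 CPM (0.02), 44 of 78 members were higher in active cells (background 50.5%), 1 was past 1.5-fold higher (11.9%) and 0 lower (10.5%). In all 4 strata 3 were higher (7.52%) and 1 lower (6.88%). By stratum the pooled ratio was 0.08 in day cFOS+, 0.15 in day cFOS- and 0.36 in night cFOS+ cells. It was -0.50 in night cFOS- cells, so here too strata of opposite sign were pooled. Within the number ranges the ratio was -0.03 and -0.03, with 32 of 78 (background 49.8%) and 27 of 61 (50.7%) members higher. Past 1.5-fold were 2 higher (15.5%) and 0 lower (14.7%) in the lower numbers, and 7 higher (24.3%) and 4 lower (21.4%) in the higher numbers. The rule named Rpl30, Rps15a, Rps12 and Rpl29. Rpl30, at a bridge between the subunits, was at 0 to 932 CPM in active cells with a median of 33.003 CPM, and at 0 to 274.6 CPM in silent cells with a median of 33.052 CPM. The medians were nearly the same, while the active cells reached higher, and the pooled ratio was 0.73 (101.8 against 61.01 CPM), or 0.79 and 0.45 within the ranges. Rps12 was at 26.4 against 20.1 CPM (0.38, with 0.31 and 0.33), Rps15a at 64.7 against 46.0 CPM (0.48, with 0.55 and -0.24) and Rpl29 at 33.002 against 43.1 CPM (-0.37, with -0.16 and -1.12). Microglia markers summed to 925 CPM in active and 872 CPM in silent cells, with medians of 5.72 and 26.8 CPM. Within the number ranges the sums were 644 against 1191 CPM in the lower and 1464 against 400 CPM in the higher numbers. Without cells with these markers the ratio of the summed ribosomal protein level was 0.03 and -0.14 there.

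One label group set itself apart from this in the pooled levels. Night silent cFOS- cells had a pooled share of 0.899%, against 0.570% in night silent cFOS+ cells, and 7 of 78 members were higher in the cFOS+ cells (background 50.7%). The median shares were 0.673 and 0.579%. The mean shares, with every cell counted once, were 0.820 and 0.597%. Pooling weights cells by their reads, and the deepest of these cFOS- cells had 25535298 reads against a group median of 5981400. The part of that cell in the pooled share was not tested. In the lower numbers the 23 cFOS- cells had shares from 0.391 to 2.68% with a median of 0.754%, and the 16 cFOS+ cells 0.347 to 1.24% with a median of 0.722%. The pooled levels there were 10653 and 7274.4 CPM (cFOS+ over cFOS- -0.55), while the ratio of the medians was -0.06, and 7 of 78 members were higher (background 52.2%). The microglia markers summed to 1123 CPM in these cFOS- and 58.1 CPM in these cFOS+ cells; without cells with such markers the ratio was -0.21, and in the higher numbers it was -0.03. The 3 comparisons that use this group, by time, by cFOS label and by firing, share its cells, and in each the pooled ratio of its stratum ran against the other 3 strata (-0.34, -0.66 and -0.50). By the ratio of median shares the 3 were at 0.11, -0.22 and -0.13, so that by time this stratum had the sign of the others. By cFOS label the day silent stratum was then also below 0 (-0.08), and by firing the day cFOS- stratum was (-0.02). Without cells with microglia markers the 3 pooled ratios of this group were at -0.09, -0.31 and -0.25, and by firing the day cFOS+ stratum was also below 0 (-0.14).

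**Figure D4:**
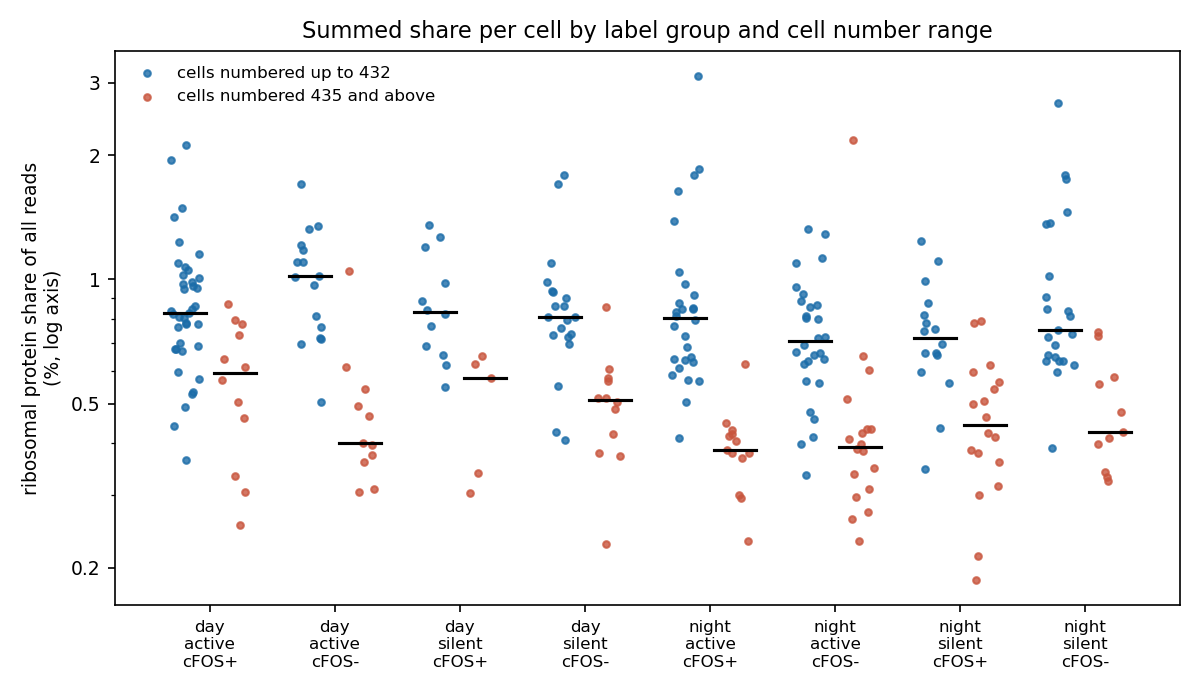
Ribosomal protein share of all reads (%, log axis) of each cell, by the 8 active and silent label groups and, within each, the lower (blue) and higher (red) cell numbers; bars are medians. In each group the median of the lower numbers is above that of the higher numbers. In the lower numbers night active cFOS+ cells reach 3.11%, night silent cFOS- cells 2.68% and day active cFOS+ cells 2.12%. Night active cFOS- cells of the higher numbers reach 2.17%.

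The highest shares were those of S246 (night active cFOS+, 3.11%), S247 (night depolarized cFOS-, 3.02%) and S387 (day depolarized cFOS-, 2.81%), and the lowest those of S449 (0.186%), S558 (0.213%) and S493 (0.228%), all 3 with higher numbers. Of 16 cells at or above 1.5%, 15 had lower numbers and 12 held microglia markers. The share was higher in cells with these markers within both number ranges, with medians of 0.874 against 0.757% in the lower and 0.578 against 0.401% in the higher numbers. As a description over cells that share library and composition, the share had a Spearman rho of 0.28 and 0.30 with the summed microglia markers in the 2 ranges. It had a rho of 0.67 and 0.51 with the summed translation factors, 0.47 and 0.40 with the mitochondrially encoded share, and -0.05 and -0.05 with detected genes. Whether microglia RNA contributes to the high shares was not tested.

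Members went up and down together from cell to cell more than genes did in general. Over all cells the median Spearman rho between 2 members was 0.26, and 2769 of 2775 pairs were positive (99.8%). Over pairs of all 3121 genes read in at least 50% of cells the median was 0.05, and 75.6% were positive. Inside the number ranges the values were lower. The median was 0.20 within the lower numbers (2746 pairs positive, 99.0%) and 0.12 within the higher numbers (2439 positive, 87.9%). All genes had 0.04 and 0.05 there, with 68.7 and 68.6% of pairs positive. Members with under 50% of shared windows had 0.18 and 0.11 within the ranges, and translation factors 0.05 and 0.07. Over all cells, large and small subunit members were as related to each other (0.26) as within the large (0.27) and the small (0.24) subunit. Within the ranges the large subunit had 0.19 and 0.12, and the small subunit 0.21 and 0.13. The 35 members with a C followed by at least 4 pyrimidines in the window around the start were also compared over all cells only. Their median rho with the sum of the other members was 0.41, and that of the 22 without such a run 0.49.

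**Figure D5:**
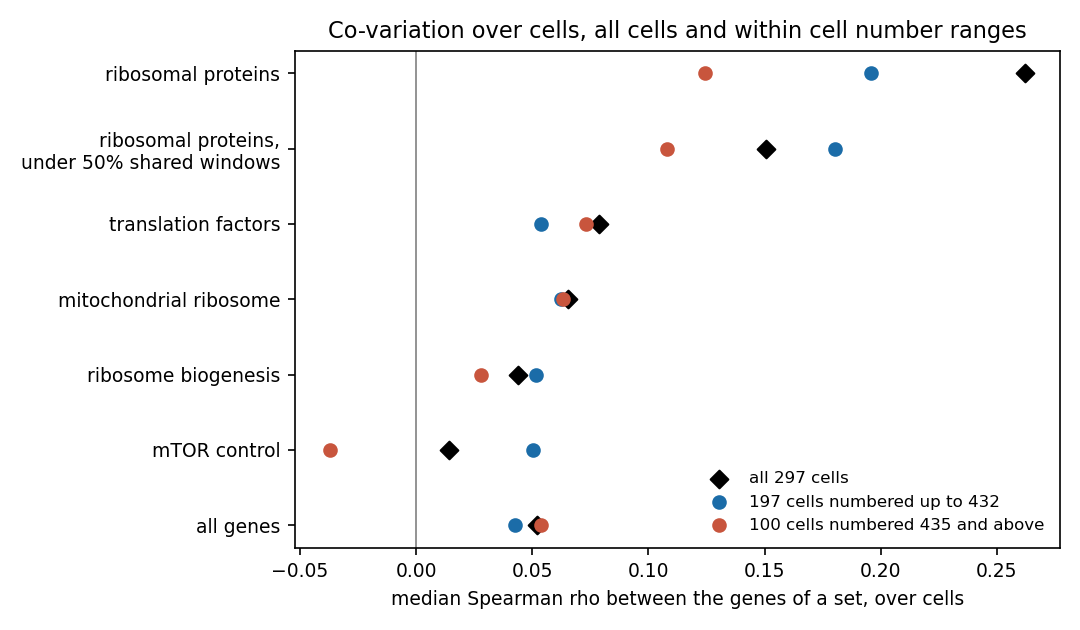
Median Spearman rho between the genes of a set, over all 297 cells (black diamonds), the lower cell numbers (blue) and the 100 cells of the higher numbers (red). Ribosomal proteins lie at 0.26, 0.20 and 0.12, and all genes at 0.05, 0.04 and 0.05.

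The closest pairs were Rpl19 and Rps29 (0.64), Rps27 and Rps29 (0.63) and Rpl13 and Rps27 (0.61), and Rps29, Rps27 and Rpl13 were among the members past 1.5-fold between the number ranges. Within the lower numbers the 3 pairs had 0.46, 0.50 and 0.42, and within the higher numbers 0.26, 0.07 and 0.09. The least related were Rpl10a and Rpl4 (-0.03), Rpl4 and Rps15 (-0.02) and Rpl10a and Rps3 (-0.02), which stayed between -0.10 and 0.01 within the ranges.

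Among genes outside the members, those most like their summed level over all cells were Ppia (0.77), Oaz1 (0.65), Gapdh (0.65), Usmg5, Tmsb10, Rps3a1, Ftl1, Wdr38, Tpt1 and Tlcd1 (0.55). Within the ranges this order broke up. Ppia stayed first in the lower numbers (0.68) and was at 0.15 in the higher numbers, and Gapdh was at 0.32 and 0.15. In the higher numbers the symbols Gm10076 (0.60), Gm5148 (0.59) and Gm10116 (0.58) came first, and Gm10076 was at 0.61 in the lower numbers. Ftl1, a ferritin light chain gene, was at 0.51 and 0.52, and the ferritin heavy chain gene Fth1 stood at 0.64 in the lower and 0.56 in the higher numbers. Wdr38 and Tlcd1 overlap exons of Rpl35 and Rpl23a on the opposite strand, and since it is unknown whether counting used strand, their reads cannot be told apart from those of the members. The least like was Snhg11, a long noncoding RNA of neurons, at -0.48 over all cells, -0.57 in the lower and -0.46 in the higher numbers. In all, 14 members had exons that overlap another gene, 12 of them a gene on the opposite strand.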

How the data were processed

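The authors deposited raw counts of reads per gene symbol for 298 cells, and a table of normalized signal. In 296 of the 297 distinct cells the deposited signal was the count times a constant of that cell (relative tolerance 1e-06); the remaining one is the averaged pair. STAR, DESeq2 and GRCm38.p4 stand in the submitters' processing notes without roles or versions. No source used here names the counting tool, the annotation, the strand setting or what was done with reads that match several genes. The kit was Nextera XT, per the labels' protocols.

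For each group, summed counts were divided by summed totals (CPM), and intervals are exact Poisson. A ratio is the log2 quotient of 2 values of CPM + 1, for genes with at least 20 CPM in one group. With 1 sample a group no test was run, and "past 1.5-fold" is a rule of size. No cell was filtered and no doublet caller was run, since each library came from 1 pipette. Python 3.11.15, numpy 2.4.6, pandas 2.3.3 and scipy 1.17.1 were used.

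Positions, lengths and coding sequences came from GENCODE M21 (GRCm38), which may not be the annotation behind the counts; promoter windows came from RefSeq (GRCm38.p6). The calculation of pooled ratios was checked on simulated counts. Members and lists were chosen with earlier results of these data known. The genes named in the label comparisons are the 5 with the largest and the 5 with the smallest ratio among members with the same sign in the pooled cells, in all 4 strata, in the mean over cells and without the top cell of each group; fewer than these met the rule. Genes named for level, detection and likeness are given by rank; some genes that would be named are not reported here one by one and stay in the counts and sums. The split by cell number, the windows shared with other genes, the promoter motifs, the copies and the 1.5% limit were chosen after values had been seen.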

Additional observations from a re-analysis of the deposited data

Results flagged for a closer look

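Cell S387, labelled day depolarized cFOS-, had a ribosomal protein share of 2.81%, and the other 6 cells of its group had 0.597 to 1.36%. Its gap to the next cell was 0.654 of the group's range, above the limit of 0.568 for 7 cells. Chance alone marks about 1 in 20 groups in this way, and 6 ends of 3 measures were looked at in this group. The summed microglia markers of S387 were at 0.174 CPM, its mitochondrially encoded share was 2.37%, and 69 of the 81 symbols had a read.

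Reads were also assigned to Rpl9-ps6, a symbol outside the naming rule that no label comparison used. It had 28.3 CPM over all cells (95% Poisson interval 28.1 to 28.6) and a read in 85.5% of cells. The split of these reads by cell number is given with its source gene Rpl9 above.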

How the results depend on the processing

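The values were recomputed under 17 alternatives per label comparison, of which the split at cell S432 was chosen after seeing the data. The log2 ratio of the summed ribosomal protein level was above 0 in all 17 for day over night, below 0 in 9 of 17 for cFOS+ over cFOS-, and above 0 in 13 of 17 for active over silent. In the order day over night, cFOS+ over cFOS-, active over silent, it was 0.14, 0.11 and 0.18 with the authors' size factors, 0.16, -0.016 and 0.029 when each group lost its top cell, 0.22, 0.086 and 0.055 without cells with microglia markers, and 0.20, 0.031 and 0.056 after thinning. It was 0.088, 0.0044 and -0.035 in cells below the median number, 0.42, 0.027 and 0.16 in the others, 0.072, -0.021 and -0.032 up to S432, and 0.21, 0.0007 and -0.031 from S435 on. The others joined cells up to S432, most of them day cells, with all cells from S435 on, where shares were lower and night cells more frequent. Their ratio of 0.42 by day thus mixed time of day with the split, and the part of each was not tested. The log2 ratio was 0.15, -0.099 and -0.11 in cells with at least the median number of detected genes, 0.15, -0.022 and 0.0084 with the 7 further symbols, 0.22, 0.030 and 0.044 as a mean of log2 values over cells, and 0.27, 0.050 and 0.067 as a median over cells. Without mitochondrially encoded genes it was 0.16 by day and -0.017 for cFOS, and as a mean of the 4 strata -0.053 for cFOS and 0.024 for firing. The number of members higher was 21 for cFOS and 25 for firing in cells with many detected genes, and 27 for firing from S435 on. At 2-fold in place of 1.5-fold, 710, 647 and 640 genes were called. The median co-variation of 0.26 was 0.12 from S435 on. Rpl30 over firing turned to -0.0021 as a median over cells, at 33.003 against 33.052 CPM. Other named genes changed sign too: Rpl32 by day was at -0.026 and Rps15a by firing at -0.20 in cells with many detected genes, Rpl10 by day at -0.11 below the median number, Rpl29 for cFOS at 0.25 as a median over cells, and Rps15a by firing at -0.12 as a median over cells. The causes were not tested. No paired analysis was possible because no result comes from a test and the groups compared share fewer than 2 cell numbers. Depth limits the low symbols: 30 cells were left out when every cell was thinned to 4210000 reads.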

Other observations

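The 14 cells labelled depolarized were in no label comparison, since all of them carried numbers up to S432 and their groups held 2 to 7 cells. Their ribosomal protein share ran from 0.392 to 3.02%. The 2 day cFOS+ cells had 0.632 and 0.857%. The 7 day cFOS- cells had 0.597, 0.687, 0.924, 0.976, 1.27, 1.36 and 2.81%. The 3 night cFOS+ cells had 0.392, 0.642 and 2.19%, and the 2 night cFOS- cells had 0.897 and 3.02%. Among the night cells, the highest of each cFOS label also had the highest summed microglia markers, at 12529 CPM in the cFOS+ cell and 20233 CPM in the cFOS- cell. The same held for the 2 day cFOS+ cells (1622.7 against 2.78 CPM). It did not hold for the 7 day cFOS- cells, where the cell at 2.81% had 0.174 CPM and the cell at 1.36% had 1945.7 CPM. The part of those markers in the share was not tested.

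A further 7 ribosomal protein symbols fell outside the naming rule, among them Fau, the scaffold protein gene Gnb2l1 (Rack1), Rps3a1, Rpl22l1, Rpl7l1 and Rpl36al. They summed to 671.9 CPM over all cells. Between cells up to S432 and cells from S435 on, 4 of the 7 were past 1.5-fold higher in the lower numbers, among them Fau at 94.7 against 23.4 CPM, and none was past it in the other direction. The background over all measured genes was 14.1% past 1.5-fold higher and 15.3% past it lower. Gnb2l1 had 123.6 CPM in the lower and 132.3 CPM in the higher numbers.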
